A study of Homo sapiens with 8 samples.

Results

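The APOBEC3 family comprises 7 cytidine deaminases, APOBEC3A, APOBEC3B, APOBEC3C, APOBEC3D, APOBEC3F, APOBEC3G and APOBEC3H, which were taken by symbol from the 60664 genes of the table. RNA was sequenced from THP-1 cells, an established human line from an acute monocytic leukemia, and from their DAC-resistant derivative. DAC (decitabine), a hypomethylating drug, is an analogue of deoxycytidine that traps DNA methyltransferases once built into DNA. Parental cells (labelled WT) and DAC-resistant cells were each kept for 6 days with DMSO, the solvent, or with 1 µM DAC, which gave 4 groups of 2 biological replicates and 8 libraries. The resistant cells came from parental cells that survived repeated pulses of DAC and then grew without it, so 1 resistant line stands for resistance here, and the sources used here do not call it a clone. Levels are FPKM, reads scaled by exon length and by sequencing depth, and the libraries held 27467516 to 31903359 reads on genes, recovered from the steps of the FPKM values.

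APOBEC3 enzymes turn cytosine into uracil in single-stranded DNA. They are known for restricting retroviruses and retrotransposons, whose DNA they mutate during reverse transcription, and APOBEC3A and APOBEC3B are also known as sources of mutations in tumour genomes. Several members are known interferon-induced genes, and the family is known to be expressed in many blood cells, monocytes and lymphocytes among them.

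The 7 genes lie side by side on the plus strand of chromosome 22, within 151.3 kb between CBX6 and CBX7, at chr22:38952741-39104067 (GRCh38, GENCODE v44). Each deaminase domain is built around a zinc site whose coding sequence holds a histidine codon, any codon and a glutamate codon, then a proline codon with a cysteine codon and, a few codons on, another cysteine codon. A search of the coding sequence of 1 transcript per gene for this pattern found it once in APOBEC3A, APOBEC3C and APOBEC3H, with 199, 190 and 183 codons. It occurred at 2 places in APOBEC3B, APOBEC3D, APOBEC3F and APOBEC3G, with 373 to 386 codons. The last such stretch of each distinct kind is shown because its likeness between members bears on how reads were assigned. The capitals mark the 5 zinc-site codons.
APOBEC3B, exon 6, chr22:38991365-38991475: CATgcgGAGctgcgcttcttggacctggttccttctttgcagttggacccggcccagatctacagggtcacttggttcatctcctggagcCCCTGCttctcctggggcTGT
APOBEC3C, exon 3, chr22:39017787-39017891: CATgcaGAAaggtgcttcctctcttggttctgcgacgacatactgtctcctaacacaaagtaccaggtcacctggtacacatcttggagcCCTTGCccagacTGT
APOBEC3F, exon 6, chr22:39052095-39052199: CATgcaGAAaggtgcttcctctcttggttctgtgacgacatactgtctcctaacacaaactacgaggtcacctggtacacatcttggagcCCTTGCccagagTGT
APOBEC3G, exon 6, chr22:39086312-39086416: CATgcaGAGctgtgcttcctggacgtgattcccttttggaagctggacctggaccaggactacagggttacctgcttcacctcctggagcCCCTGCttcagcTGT
APOBEC3H, exon 3, chr22:39101246-39101350: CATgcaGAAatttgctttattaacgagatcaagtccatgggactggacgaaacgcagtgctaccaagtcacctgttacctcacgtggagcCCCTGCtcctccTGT
The stretch of APOBEC3A was identical to that of APOBEC3B over 111 of 111 bases, and the last stretch of APOBEC3D was identical to that of APOBEC3F over 105 of 105. APOBEC3C shared 101 of 105 bases (96.2%) with APOBEC3F, while APOBEC3H shared at most 65 of 105 (61.9%) with any last stretch of its length, that of APOBEC3G. Over whole transcripts, 14.7% of the 100-base windows of APOBEC3B occurred in another member as well, against 9.16% for APOBEC3A, 8.73% for APOBEC3D, 6.78% for APOBEC3F and 3.54% for APOBEC3G. No window of APOBEC3C or APOBEC3H did. Reads from identical windows cannot be given to 1 member, so the values of APOBEC3C and APOBEC3H are free of this limit at that length and those of the other members are uncertain to that extent.

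Other genes overlap some members. A read-through gene, ENSG00000284554, covers 2104 of the 2529 exon bases of APOBEC3D (83.2%) on the same strand and 17 bases of APOBEC3C. It was listed at 0 in all 8 libraries. Reads that touch 2 genes are commonly left out of counts, and the setting used is not given in the sources used here, so the APOBEC3D level may rest on only 425 exon bases while it is scaled by all of them. The antisense gene APOBEC3B-AS1 covers 244 exon bases of APOBEC3B, but it reached at most 0.0913 FPKM in any library.

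In untreated parental cells APOBEC3C led the family, followed by APOBEC3B, APOBEC3G, APOBEC3F, APOBEC3H, APOBEC3D and APOBEC3A. No neighbouring pair in that order overlapped between libraries. The place of APOBEC3D, here and in the other groups, is not settled, since its level may be understated for the overlap given above. The summed level of the 7 genes was 48.3 ± 0.662 FPKM (SD, n = 2) with DMSO and 51.8 ± 0.0762 FPKM with DAC in parental cells. In DAC-resistant cells it was 30.5 ± 2.06 FPKM with DMSO and 28.2 ± 0.103 FPKM with DAC, so that no resistant library reached the level of a parental one. The order held in parental cells with DAC, except that APOBEC3B and APOBEC3G overlapped there. In resistant cells APOBEC3G stood above APOBEC3B, and APOBEC3H was near the bottom beside APOBEC3A, with overlapping libraries. With DAC, APOBEC3B and APOBEC3F also overlapped in resistant cells.

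**Figure D1:**
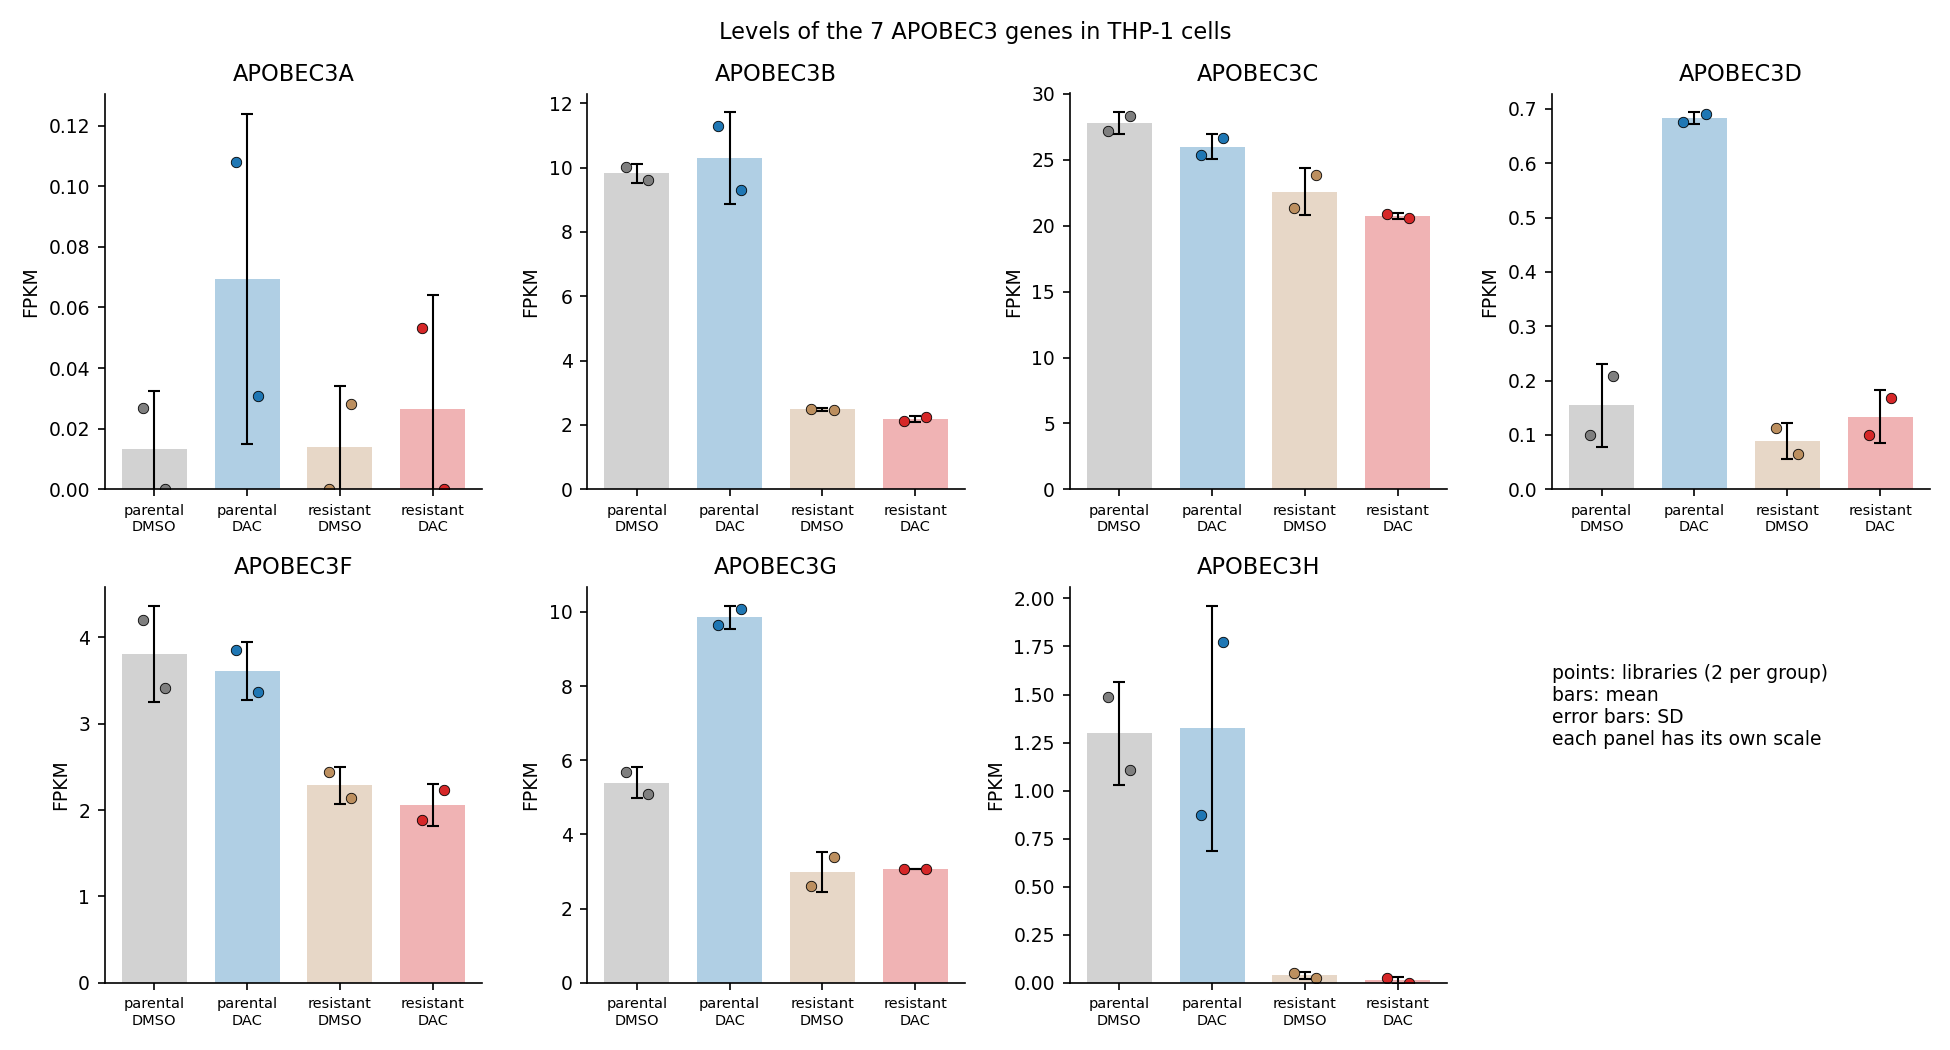
FPKM of each APOBEC3 gene in the 4 groups, with 1 panel per gene on its own linear axis from 0; points are the 2 libraries of a group, bars their mean and error bars the SD. APOBEC3B lies between 2.12 and 2.51 FPKM in the 4 resistant libraries and between 9.29 and 11.3 FPKM in the parental ones, and APOBEC3G is highest in parental cells with DAC.

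The first comparison asked how the family differed between DAC-resistant and parental cells before new DAC was given. APOBEC3B and APOBEC3H were far lower in resistant cells, and APOBEC3G, APOBEC3F and APOBEC3C were lower by smaller amounts. In bulk RNA, fewer cells that express a gene and less RNA per cell cannot be told apart. Genes were called by limma, with variances moderated along a trend, at thresholds of 0.01 for the unadjusted p and of 1 for the change in log2(FPKM + 1). Of the 5 members that passed the filter on low values (at least 1 FPKM in at least 2 libraries), 2 were called lower and 0 higher. Over the 14899 genes tested, 4.28% were called lower and 4.45% higher. All 5 were lower at an adjusted p under 0.05 (Benjamini-Hochberg), as were 26.2% of all genes tested. APOBEC3H passed the filter only through its parental libraries, so its presence in these counts, and in the median, is not independent of its fall. The same holds for 311 of the 637 genes called lower over the whole table. The median difference was 0.018 on the log2 scale over all genes and -0.68 over the 5 members.

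APOBEC3B, a mainly nuclear member with a pair of deaminase domains, stood at 10.03 and 9.60 FPKM in the parental DMSO libraries and at 2.51 and 2.46 FPKM in the resistant DMSO libraries. The groups lay far apart, with each pair of libraries close together. The reads fell from 1155 to 290 over the group, a ratio of 3.96 after scaling for depth (95% counting interval 3.48 to 4.52). The limma difference was -1.64 in log2(FPKM + 1) (SE 0.0871, adjusted p = 1.37e-05). Under each of the 15 alternatives tried the difference remained past both thresholds.

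APOBEC3H, a single-domain member that differs between people in protein stability, gave 1.49 and 1.11 FPKM in parental cells with DMSO. In resistant cells it gave 0.0506 and 0.0266 FPKM, which came from 2 reads and 1 read. The parental libraries held 59 and 42 reads, and no resistant library came near them. The depth-scaled ratio of reads was 33.4, with a wide counting interval of 11.1 to 165 because so few resistant reads were left. On the log2(FPKM + 1) scale, which understates changes at such low levels, the difference was -1.14 (SE 0.197, adjusted p = 0.00266). Across alternatives it ranged from -4.69 to -1.02.

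APOBEC3G, known for its action against HIV that lacks Vif, was at 5.69 and 5.10 FPKM in parental cells and at 2.62 and 3.38 FPKM in resistant cells with DMSO. Its difference of -0.68 (SE 0.0974, adjusted p = 0.00111) missed the fold that a call needs. APOBEC3F, which also acts on HIV DNA, stood at 4.20 and 3.41 FPKM in parental and at 2.44 and 2.14 FPKM in resistant cells, a difference of -0.55 (SE 0.112, adjusted p = 0.00568). APOBEC3C, a single-domain member with weak action on HIV, was at 27.2 and 28.4 FPKM against 21.3 and 23.9 FPKM. None of these 3 genes overlapped between the groups, as was so for 36.9% of all genes in the direction of lower levels. Of the 5, the APOBEC3C difference was the smallest, -0.29 (SE 0.0563, adjusted p = 0.00465), a ratio of reads of 1.23.

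APOBEC3D and APOBEC3A were under the filter in all groups. APOBEC3D, which has a pair of domains, had 8 and 16 reads (0.0998 and 0.209 FPKM) in parental and 9 and 5 reads (0.113 and 0.0658 FPKM) in resistant cells with DMSO. These libraries overlapped, and the difference in the fit without the filter was -0.082 (95% interval -0.27 to 0.11, adjusted p = 0.583). APOBEC3A, a single-domain member known to be induced strongly by interferon in monocytes, had 2 and 0 reads in parental and 0 and 2 reads in resistant cells with DMSO. Its reads were recovered only from ratios between libraries, so they may all be too low by a common factor. A count of 0 allows up to 3 reads, which would be 0.0400 to 0.0464 FPKM over the 8 libraries, so no difference was detectable at this depth.

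**Figure D2:**
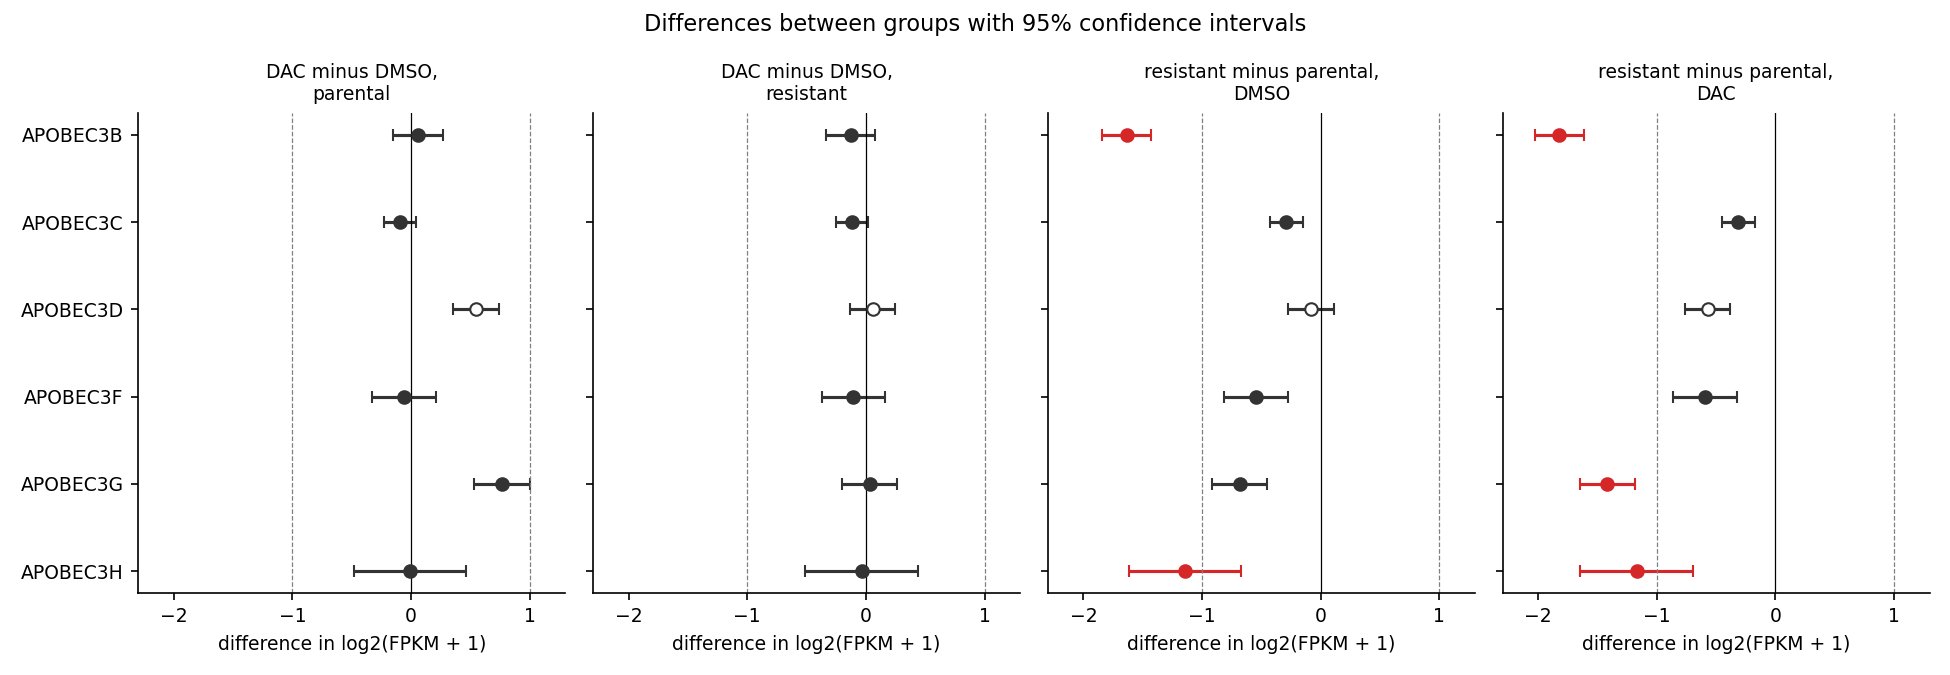
Differences in log2(FPKM + 1) with 95% confidence intervals from limma for 6 members in 4 comparisons; red points are calls, open points come from the fit without the filter, dashed lines mark a change of 1, and APOBEC3A is left out for its few reads. In resistant cells the effects of DAC lie between -0.13 and 0.057, while APOBEC3B lies at -1.64 and -1.82 in both comparisons of the cell lines.

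The second comparison asked what DAC did in parental cells. APOBEC3G rose and APOBEC3D rose from a low level, while APOBEC3B, APOBEC3C, APOBEC3F and APOBEC3H did not pass the test. In all, 0 of the 5 tested members were called by limma, against 6.66% of all genes called higher and 2.64% called lower. At an unadjusted p under 0.05 there was 1 of 5 (APOBEC3G), where 62.5% of all genes were, and limma voom on recovered reads called 0 of the 5 and 14.9% of all genes.

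APOBEC3G went from 5.69 and 5.10 FPKM with DMSO to 9.64 and 10.07 FPKM with DAC. The 2 DAC libraries were close together and stood above both DMSO libraries. Its reads gave a ratio of 1.82 (counting interval 1.72 to 1.94), and the limma difference was 0.76 (SE 0.0974, adjusted p = 0.00066). It was the only 1 of the 5 tested members that was higher at an adjusted p under 0.05, as 33.6% of all genes were. APOBEC3D rose from 8 and 16 reads to 47 and 48 reads, or to 0.676 and 0.691 FPKM, a ratio of 4.47 (2.83 to 7.31). In the fit without the filter its difference was 0.55 (SE 0.0760, adjusted p = 0.00449), and it reached a change of 1 with a pseudocount of 0.1 FPKM, after rescaling to TPM and in voom.

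The other tested members did not pass the test. APOBEC3B was at 11.3 and 9.29 FPKM with DAC, on either side of its DMSO libraries, with a difference of 0.057 and a 95% interval of -0.15 to 0.27. APOBEC3C was at 25.4 and 26.7 FPKM (difference -0.091, interval -0.23 to 0.044), and APOBEC3F at 3.85 and 3.37 FPKM (difference -0.058, interval -0.33 to 0.21). APOBEC3H was at 0.872 and 1.77 FPKM, from 30 and 61 reads, so that its DAC libraries lay below and above both DMSO libraries. Its interval, -0.48 to 0.47, was the widest of the family. APOBEC3A, under the filter, had 7 and 2 reads with DAC against 2 and 0 with DMSO, a ratio of 5.08 with a counting interval of 1.05 to 48.3, and its difference in the fit without the filter was 0.077 (adjusted p = 0.311).

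In resistant cells DAC moved no member past the test. Of the 5 tested members, 0 were called by limma, where 0.114% of all genes were called higher and 0.121% lower. None had an unadjusted p under 0.05, where 27.0% of all genes had, and voom called 0 of the 5 and 0.369% of all genes. APOBEC3G gave 3.06 and 3.07 FPKM with DAC, between its DMSO values of 2.62 and 3.38 FPKM, a difference of 0.031 (95% interval -0.20 to 0.27). APOBEC3B gave 2.12 and 2.26 FPKM (difference -0.13, interval -0.34 to 0.081) and APOBEC3C 20.9 and 20.6 FPKM (difference -0.12, interval -0.25 to 0.020). Both stood a little under their DMSO libraries without passing the test. APOBEC3F gave 1.89 and 2.23 FPKM, and APOBEC3H gave 1 read and 0 reads. APOBEC3D had 8 and 13 reads, which overlapped its DMSO libraries, and APOBEC3A had 4 and 0.

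The difference between the effects of DAC in the 2 cell lines was tested as an interaction. APOBEC3G differed, with an effect that was lower by 0.73 in resistant than in parental cells (SE 0.138, adjusted p = 0.00493), and this passed in the direction in which 28.4% of all genes did. For APOBEC3D the effect was lower by 0.49 (SE 0.107, adjusted p = 0.0304) in the fit without the filter, although voom gave an unadjusted p of 0.0656. For APOBEC3B, APOBEC3C, APOBEC3F and APOBEC3H the adjusted p ran from 0.255 to 0.941. No member reached the fold of a call in the interaction, where 7.16% of all genes were called lower and 3.46% higher. At an unadjusted p under 0.05 there was 1 of the 5 tested, where 56.0% of all genes were, and voom called 0 of the 5 and 15.3% of all genes.

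With DAC in both cell lines, resistant cells were again lower. The group means of this comparison come from other libraries than those with DMSO, but its parental DAC libraries also entered the test of DAC in parental cells. All 8 libraries share an estimate of the spread in the fit, so these p-values and those with DMSO are not independent. APOBEC3B, APOBEC3G and APOBEC3H were called lower, 3 of 5 where 9.17% of all genes were and 5.29% were called higher, and all 5 passed an adjusted p of 0.05, as 35.1% of genes did. As before, APOBEC3H is in both counts only through its parental libraries. APOBEC3B stood at 11.3 and 9.29 FPKM in parental and 2.12 and 2.26 FPKM in resistant cells, a difference of -1.82 (SE 0.0871, adjusted p = 4.8e-06). APOBEC3G stood at 9.64 and 10.07 against 3.06 and 3.07 FPKM, a difference of -1.42 (SE 0.0974, adjusted p = 2.49e-05). Its ratio of reads was 3.21, against 1.81 with DMSO. For APOBEC3H, 30 and 61 parental reads stood against 1 and 0, a ratio of 104 (18.1 to 4134), and a difference of -1.17 (SE 0.197, adjusted p = 0.00181). Without parental DAC replicate 2 the APOBEC3H difference was -0.89, short of the fold of a call. APOBEC3D, with 47 and 48 reads against 8 and 13, differed by -0.57 (adjusted p = 0.00294, no filter), a ratio of 5.15 (3.18 to 8.70), and this was past the fold of a call with a pseudocount of 0.1 FPKM (-1.76), in TPM (-1.14) and in voom (-2.36). APOBEC3F and APOBEC3C differed by -0.59 and -0.31 (adjusted p = 0.00307 and 0.00254).

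The makeup of the family, a measure within each library that is free of scaling between libraries, shifted toward APOBEC3C in resistant cells. APOBEC3C made up 55.8% and 59.3% of the summed FPKM in parental cells with DMSO and 48.9% and 51.4% with DAC. In the 4 resistant libraries its share was 72.7% to 74.7%. APOBEC3B held 17.9% to 21.8% in parental libraries and 7.51% to 8.63% in resistant ones. APOBEC3H took 1.68% to 3.42% of the family in parental and at most 0.174% in resistant libraries. The share of APOBEC3G was 18.6% and 19.4% in parental cells with DAC and 9.01% to 11.7% in the other groups. APOBEC3F kept a like share throughout, 6.49% to 8.62%, with overlap between all groups.

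**Figure D3:**
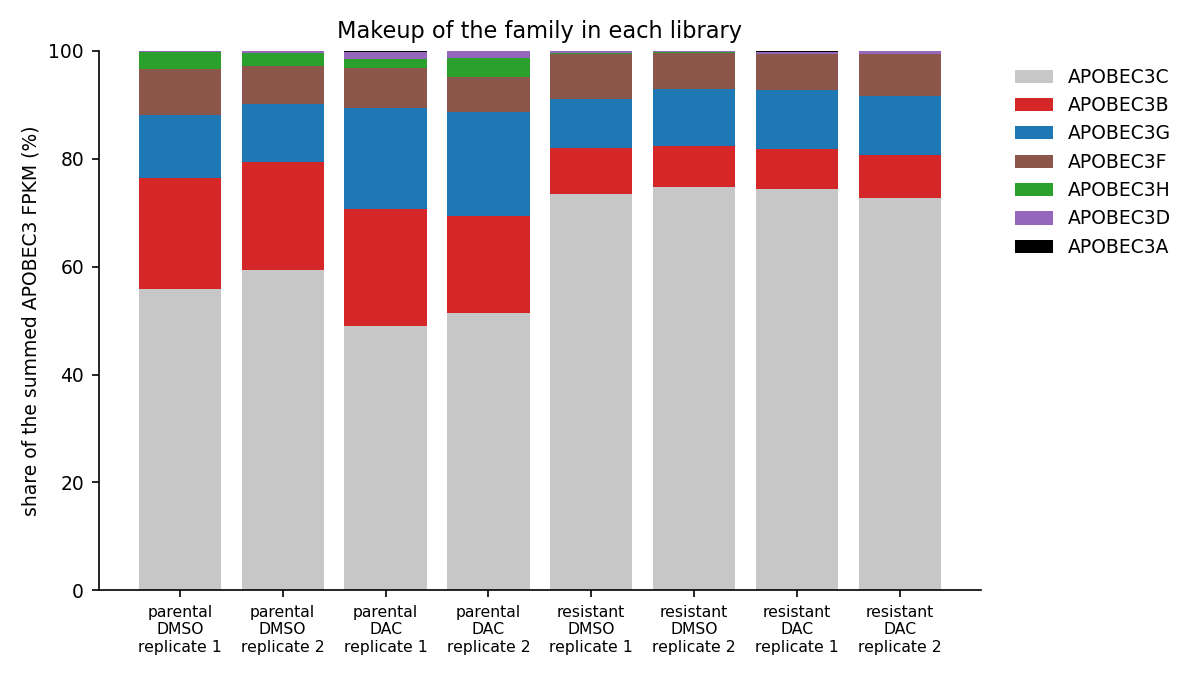
Share of each APOBEC3 gene in the summed FPKM of the family (percent, linear axis from 0 to 100) in each of the 8 libraries. APOBEC3C takes 48.9% to 59.3% in the parental libraries and 72.7% to 74.7% in the resistant ones, and APOBEC3B and APOBEC3H shrink.

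APOBEC3H had the largest ratio between the cell lines, so the sequence before its start site is shown. Of the 7 members, 1 was matched to the RefSeq promoter windows (GRCh38.p14), which run from 250 bases before to 50 after a start. APOBEC3A, APOBEC3B, APOBEC3C, APOBEC3D, APOBEC3F and APOBEC3G were not matched. The 250 bases before the start lie at chr22:39096994-39097243 on the plus strand, with the CG dinucleotide, the site of DNA methylation, in capitals.
APOBEC3H: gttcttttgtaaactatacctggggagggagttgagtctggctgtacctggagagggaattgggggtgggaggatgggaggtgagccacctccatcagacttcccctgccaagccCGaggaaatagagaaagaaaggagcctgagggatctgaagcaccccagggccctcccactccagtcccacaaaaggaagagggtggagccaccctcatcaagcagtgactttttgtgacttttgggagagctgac
The 300-base window holds 1 CG, where the median over 35116 promoter windows was 14 and 11.0% of windows held as few. The interferon-response letters GAAA, any 2 bases and GAAA again, searched on both strands, had 0 matches in the window and at least 1 in 3.6% of all windows. The shorter AANNGAAA, which overlaps that motif, had 1 match, aagtgaaa, 28 to 35 bases after the start, and occurs in 22.8% of windows. DNA methylation was not analysed here.

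Several lists of related genes were set beside the family. The listed APOBEC genes outside the family, with the APOBEC1 cofactor gene A1CF, stayed under 1 FPKM in all libraries. APOBEC1, the editor of apolipoprotein B RNA, was listed at 0 in all libraries. TREX1, from the list of restriction factors below, was at 0 in all libraries too, so a listed 0 need not mean that a gene is silent. APOBEC2 averaged 0.603 and 0.602 FPKM in parental cells with DMSO and DAC and 0.148 and 0.147 FPKM in resistant cells. None of the 4 passed the filter. Of 8 other deaminases tested, 1 was raised and 1 lowered in resistant cells with DMSO, where 4.45% and 4.28% of all genes were. Both fell outside the rule for examples and are named after their values were seen. CDA, which inactivates cytidine analogues, was lower at 2.26 FPKM in parental and 0.419 FPKM in resistant cells (-1.21), but passed the filter only through its parental libraries. ADARB1, an RNA adenosine deaminase, was higher (1.28, adjusted p = 8.65e-06). With DAC in parental cells 1 of the 8 was raised, where 6.66% of all genes were. It was ADAR, another RNA adenosine deaminase, which went from 38.4 to 103 FPKM (1.40).

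The 15 listed genes that remove, repair or keep out uracil in DNA, the product of these enzymes, held 0 calls in either direction in each of the 5 limma comparisons, and at an adjusted p under 0.05 they held 4 higher and 3 lower with DAC in parental cells, where 33.6% of all genes were higher and 24.1% lower. With DAC in resistant cells 0 were higher and 6 of the 15 lower at that threshold, as 5.35% of all genes were. Among them, UNG, the main uracil-DNA glycosylase, rose with DAC in parental cells (12.6 to 17.2 FPKM, 0.42, adjusted p = 0.00141) and fell in resistant cells (18.6 to 13.6 FPKM, -0.43, adjusted p = 0.0111). FEN1, a flap endonuclease of DNA repair named after its values were seen, fell from 72.2 to 45.4 FPKM in resistant cells (-0.66, adjusted p = 0.00137). In parental cells DUT, which keeps uracil out of DNA, fell by 0.61 after DAC (adjusted p = 2.94e-05). The list medians were 0.012 with DAC in parental cells, -0.082 with DAC in resistant cells and 0.0080 between the cell lines with DMSO.

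The list of other retrovirus restriction factors, many of them interferon-induced like the family, was larger. Of the 21 tested, 10 were called higher with DAC in parental cells and 0 lower, where 6.66% and 2.64% of all genes were. The median was 0.86 beside 0.057 over all genes. IFITM1 and IFITM3, which block virus entry, rose by 4.33 and 3.71 in log2(FPKM + 1), and the interferon-induced GTPases MX1 and MX2 by 4.20 and 3.47. Of the 10, only MX1 (0.282 to 22.6 FPKM) passed the filter solely through the parental DAC libraries in which it is high. In resistant cells DAC called 0 of the 21 higher, 9 were lower at an adjusted p under 0.05, as 5.35% of all genes were, and the median was -0.17. Between the cell lines with DMSO, 6 were called higher and 1 lower in resistant cells, where 4.45% and 4.28% of all genes were. At an adjusted p under 0.05, 13 were higher and 4 lower, where 31.3% and 26.2% of all genes were. The median of the 21 was 0.48 with DMSO. The 5 tested APOBEC3 genes gave values from -1.64 to -0.29, APOBEC3H among them only through its parental libraries, and the difference between the lists was not tested. In parental cells APOBEC3G rose by 0.76 beside these genes, and APOBEC3B, APOBEC3C, APOBEC3F and APOBEC3H gave values between -0.091 and 0.057. Between the cell lines with DAC, the median of the 21 restriction factors turned to -1.13. Of these genes 0 were called higher and 11 lower in resistant cells, where 9.17% of all genes were called lower. At an adjusted p under 0.05, 16 were lower and 4 higher. MX1 was among the lower genes only through its parental DAC libraries. In that comparison the 5 tested APOBEC3 genes lay between -1.82 and -0.31.

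NF-kB factors and the cell-cycle factors of the DREAM and B-MYB/FOXM1 programme are known regulators of APOBEC3B. Of the 7 NF-kB genes, 3 were called lower in resistant cells with DMSO and 0 higher, where 4.28% and 4.45% of all genes were. The median was -0.54 beside 0.018 over all genes. RELB, a subunit of the noncanonical pathway, went from 12.0 to 3.76 FPKM (-1.45), NFKB1 from 10.2 to 3.46 FPKM (-1.33) and the inhibitor NFKBIA from 43.3 to 20.8 FPKM (-1.02). With DAC in parental cells 1 of the 7, NFKBIA, was called higher (1.00), as 6.66% of all genes were. Of 23 DREAM and B-MYB/FOXM1 genes, 1 was called higher in resistant cells with DMSO and 0 lower, with a median of 0.21. That gene, BIRC5, a survivin-coding target named after its values were seen, rose by 1.01. FOXM1 was lower (-0.51) and MYBL2, the B-MYB gene, higher (0.35). These are values beside those of APOBEC3B, and their part in its level was not tested.

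The neighbours of the cluster on chromosome 22 were described in the same way. Over all genes 4.45% were called higher and 4.28% lower in resistant cells with DMSO. Of 13 tested neighbours, 0 were called higher and 2 lower in that comparison, with a median of 0.077. These were NPTXR, a neuronal pentraxin receptor gene (3.81 to 0.111 FPKM, -2.11), and CBX6, a Polycomb gene and the nearest coding gene before APOBEC3A (10.9 to 3.77 FPKM, -1.32). On the other side CBX7, also a Polycomb gene, had a difference of -0.87 (1.96 to 0.621 FPKM, adjusted p = 0.00067). CBX6 and CBX7 are named for their place and after their values were seen. NPTXR and CBX7, like APOBEC3H, passed the filter only through their parental libraries, so that their presence among the tested genes is not independent of their lower levels in resistant cells. Over the 13 neighbours 4 were lower and 6 higher at that threshold, where 26.2% and 31.3% of all genes were. With DAC in parental cells the neighbours held 1 raised and 1 lowered gene, where 6.66% and 2.64% of all genes were called. The raised gene was MGAT3 (0.225 to 2.82 FPKM, 1.64), which passed the filter only through those DAC libraries. The lowered gene was the ribosomal protein gene RPL3 (-1.52), while ATF4 fell by 0.94 and NPTXR rose by 0.71.

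**Figure D4:**
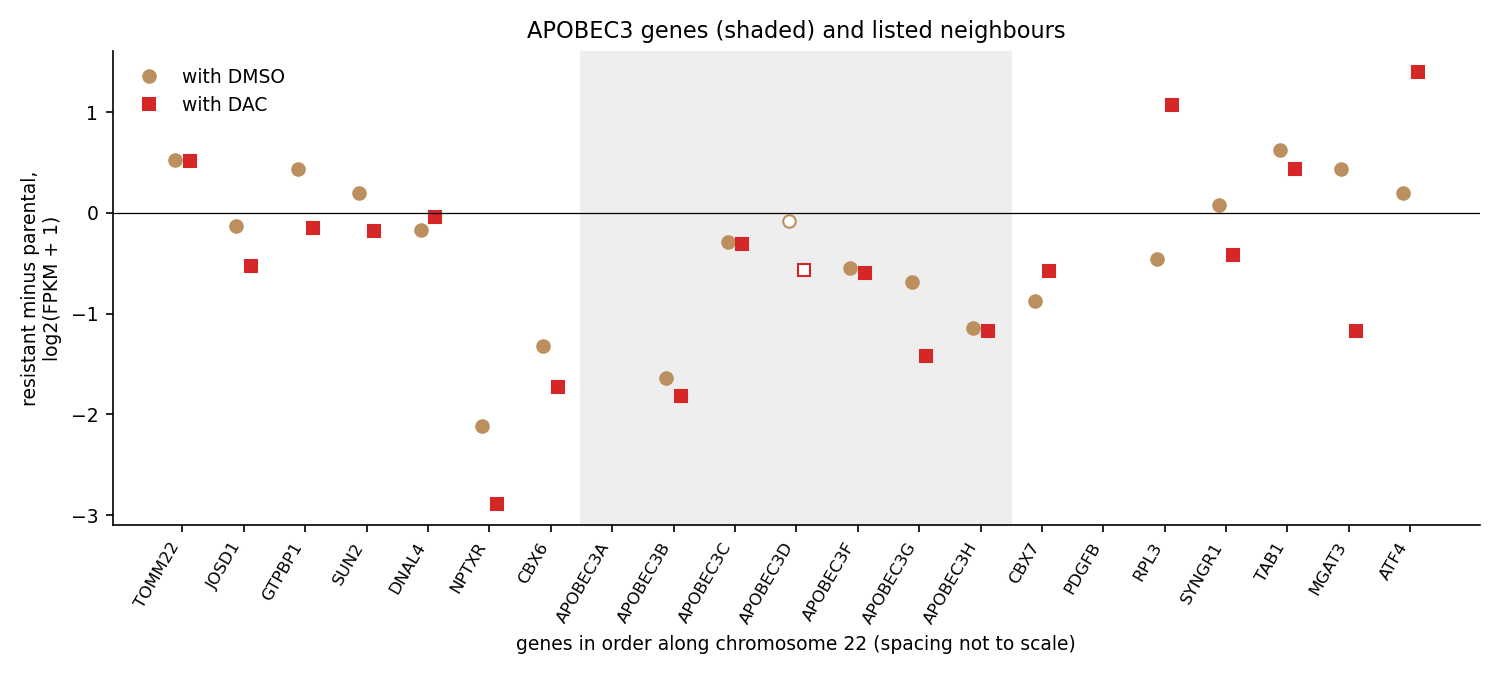
Resistant minus parental difference in log2(FPKM + 1) for the APOBEC3 genes (shaded) and the listed neighbours, in order along chromosome 22 with spacing not to scale; circles are cells with DMSO, squares cells with DAC, and open symbols come from the fit without the filter. With DMSO, NPTXR lies at -2.11, CBX6 at -1.32, APOBEC3B at -1.64 and CBX7 at -0.87. NPTXR, CBX7 and APOBEC3H are among the tested genes only through their parental libraries, and APOBEC3A and PDGFB are not drawn. MGAT3, at -1.17 with DAC, is among them only through its parental DAC libraries.

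Genes whose pattern over the 8 libraries was most like that of a member were found by Pearson's r of log2(FPKM + 1), a description in which the libraries of a group share their treatment. For APOBEC3B these were STAT6 (r = 0.998), a cytokine-activated transcription factor at 32.9, 34.1, 18.2 and 17.6 FPKM in parental DMSO, parental DAC, resistant DMSO and resistant DAC cells, and OVCH1 (r = 0.998). For APOBEC3G they were CCDC9B (r = 0.997), at 2.93, 6.03, 1.32 and 1.37 FPKM in the same order, and ENSG00000218226 (r = 0.997). DIS3, a catalytic subunit of the RNA exosome, was most like APOBEC3C (r = 0.991), followed by TCF24 (r = 0.987). ENSG00000270605 (r = 0.986) and LOC102724301 (r = 0.978) were most like APOBEC3F. ENSG00000253474 (r = 0.986) and ENSG00000265743 (r = 0.985) were most like APOBEC3H, both at group means of 1.77 to 1.92 FPKM in parental cells and of at most 0.198 FPKM in resistant cells. Only genes that passed the filter were searched. ENSG00000253474, ENSG00000265743, OVCH1 and LOC102724301 passed it only through their parental libraries, as APOBEC3H did. TCF24, ENSG00000270605 and ENSG00000218226 averaged under 1 FPKM in both resistant groups.

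Cell-type markers were read beside these results. All 10 monocyte-lineage markers passed the filter. Their summed level was 410 to 427 FPKM in parental DMSO libraries and 506 to 521 with DAC. In resistant libraries it was 313 to 331 FPKM with DMSO and 317 to 326 with DAC. With DMSO, 3 of the 10 were called lower in resistant cells and 0 higher, where 4.28% of all genes were called lower. At an adjusted p under 0.05, 9 were lower and 0 higher (median -0.57), where 26.2% of all genes were lower. With DAC in both cell lines 5 were called lower, where 9.17% of all genes were. At that adjusted threshold 9 were lower (median -1.36), as 35.1% of genes were. CD14 and MPEG1 passed the filter only through their parental libraries. The 3 called lower with DMSO, named after their values were seen, were LYZ, the lysozyme gene (12.0 to 4.29 FPKM), ITGAM, an integrin gene (6.40 to 1.80 FPKM), and CD33, a myeloid surface receptor gene (9.83 to 4.30 FPKM). With DAC in parental cells 3 of the 10 were called higher and 0 lower, where 6.66% of all genes were called higher, and at an adjusted p under 0.05 there were 8 higher and 2 lower. The 2 lower were CD4, the most abundant of the markers (157 to 123 FPKM, -0.34, adjusted p = 0.000371), and CD33 (9.83 to 7.86 FPKM, -0.29, adjusted p = 0.00355). The 3 called higher were LYZ (12.0 to 47.8 FPKM), CD14, a receptor for bacterial lipopolysaccharide (1.52 to 19.9 FPKM), and MPEG1, a perforin-like gene of macrophages (0.541 to 11.1 FPKM), the last of which passed the filter only through those DAC libraries. Markers of T or NK cells, which express several APOBEC3 genes, stayed under 1 FPKM in all libraries for 6 of 8 genes. CD3D, CD3G and CD2 had a mean of 0 in parental cells with DMSO and in both resistant groups, while NKG7 and NCAM1 were above 1 FPKM and brought the sum to 21.9 to 37.0 FPKM. These 2 moved in opposite directions, which the sum does not show. NKG7, a granule protein gene of cytotoxic cells, was called higher with DAC in parental cells (5.67 to 16.7 FPKM, 1.41) and lower in resistant cells with DMSO (2.19 FPKM, -1.06) and with DAC (2.14 FPKM, -2.51). NCAM1, a cell adhesion gene, went from 16.9 to 9.91 FPKM with DAC in parental cells (-0.72) and was higher in resistant cells with DMSO (30.9 FPKM, 0.83) and with DAC (34.4 FPKM, 1.70). Of 7 B or plasma cell markers, 4 stayed under 1 FPKM in all libraries, and the sum was 6.60 to 11.2 FPKM. The part of these markers in the APOBEC3 differences was not tested.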

How the data were processed

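RNA of 8 cultures in 4 groups was measured. Per the study's methods and processing notes, the authors trimmed reads with cutadapt 1.9.1, aligned them to hg38 with HISAT2 2.1.0 and counted them with HTSeq 0.13.5 on Ensembl genes; strand and overlap settings are not given in the sources used here. The authors deposited values named FPKM for 60664 genes and 1264 repeat families (the latter not used here). No source used here states a factor, but the steps between low values give each library's total as nearly the sum of its recovered reads only if the values are FPKM multiplied by 1000, so they were divided by 1000. Column names tied the 8 columns to the samples.

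The 14899 genes that reached 1 FPKM in 2 or more libraries were fitted as log2(FPKM + 1) in R 4.3.3 by limma 3.58.1, with a mean for each of the 4 groups and variances moderated along a trend (4 residual and 2.50 prior degrees of freedom). P-values were adjusted by Benjamini-Hochberg over the genes tested, and all tests are two-sided. APOBEC3D was taken from the fit without a filter. An exact permutation test of 2 against 2 libraries cannot go below p = 0.333, so p-values lean on limma's pooling across genes, and they measure the spread between cultures of 1 resistant and 1 parental line.

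Reads were recovered from the FPKM steps with GENCODE v44 exon lengths: of 39592 genes above 0, 34961 were solved by length and 4630 by ratios between libraries (whole within 0.02), and 1 was not. APOBEC3A was solved by ratios. Counting intervals are exact 95% intervals and cover counting error only. Ratios use these reads scaled by depth, since log2(FPKM + 1) understates changes of low genes.

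Gene lists were written by hand, some listed genes and 1 list are not reported here, and the members and lists were chosen with earlier results of these data known. Named genes were the members, the 2 genes most like each tested member, and up to 4 examples per list with the largest change with DAC in parental cells. On simulated data for that comparison, limma called 94.5% of 182 genes changed by 1.5 among 13124 tested, with 10 unchanged genes. Alternatives were a pseudocount of 0.1 FPKM, no filter, TPM, quantile scaling, a replicate block, adjusted p-values, limma voom on the reads recovered, and each library left out in turn.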

Additional observations from a re-analysis of the deposited data

Results flagged for a closer look

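The effect of DAC on 2 members differed between the cell lines in the test of the difference itself. For APOBEC3G the effect in resistant cells minus that in parental cells was -0.73 in log2(FPKM + 1) (limma, adjusted p = 0.00493), from a rise of 0.76 in parental cells and 0.031 in resistant cells. For APOBEC3D it was -0.49 (adjusted p = 0.0304, fit without the filter), from 0.55 and 0.057. The range over the alternatives was -0.87 to -0.60 for APOBEC3G and -1.67 to -0.35 for APOBEC3D, and their highest unadjusted p was 0.00613 and 0.0656. The APOBEC3D values rest on at most 48 reads per library and on a gene most of whose exon bases are shared with a read-through gene.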

How the results depend on the processing

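The counts of members called stayed at 2 and 3 lower between the cell lines with DMSO and with DAC, and at 0 for the other comparisons, with a pseudocount of 0.1, without the filter, under quantile scaling and in voom. Rescaled to TPM, which let APOBEC3D pass the filter, 1 member was called with DAC in parental cells (APOBEC3D, 1.11) and 4 between the cell lines with DAC. APOBEC3D passed there only through its parental DAC libraries, where it is highest (0.676 and 0.691 FPKM, against at most 0.209 FPKM elsewhere). Its presence in these 2 counts is therefore not independent of its change. Same-numbered libraries did not deviate together (correlations -0.022 to 0.020), so the numbers were not read as pairs. With the replicate block the counts were 0, 0, 2, 3 and 0, and no call changed. Of the member values under alternatives, 418 of 445 kept their direction and side of the threshold. The APOBEC3D difference was past the fold with a pseudocount of 0.1, in TPM and in voom, with DAC in parental cells (1.66, 1.11 and 2.20) and between the cell lines with DAC (-1.76, -1.14 and -2.36).

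Signs turned only for differences near 0 that had passed no test, and the cause was not tested. In TPM the APOBEC3C interaction was 0.030. Under quantile scaling, which moved the median of all genes with DAC in parental cells from 0.057 to -0.048, APOBEC3B with DAC in parental cells was -0.042, and the interactions of APOBEC3C, APOBEC3F and APOBEC3H were 0.047, 0.078 and 0.076. Leaving out 1 library at a time, the values with DAC in parental cells ranged from -0.072 to 0.19 for APOBEC3B, -0.18 to 0.060 for APOBEC3F and -0.29 to 0.28 for APOBEC3H, and with DAC in resistant cells from -0.11 to 0.17 for APOBEC3G. The interactions ranged from -0.10 to 0.054 for APOBEC3C, -0.17 to 0.072 for APOBEC3F and -0.31 to 0.25 for APOBEC3H. APOBEC3H with DAC, resistant against parental, lost its call without parental DAC replicate 2 (-0.89). A lone library left in a group was assumed to vary like the other groups. Depth limits APOBEC3A, APOBEC3D and, in resistant cells, APOBEC3H.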
